A study of Rattus norvegicus with 6 samples.

Results

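The fast, slow and developmental myosin chains are the subunits of the motor protein of skeletal muscle, and they were followed here in rat tissue labelled dorsal tongue epithelium. The series text calls it tissue of the circumvallate papilla, a taste structure at the back of the tongue. The genes were chosen by name. A set of 10 was named, 6 heavy and 4 light chains, and 6 of them were found among the 14405 gene rows of each library. These were the heavy chains Myh2, Myh3 and Myh8 and the light chains Mylpf, Myl1 and Myl3. Myh1, Myh4, Myh7 and Myl2 were not analysed here. RNA-seq was done on 3 libraries from non-periodontitis rats (control 1 to 3) and 3 from chronic periodontitis rats (periodontitis 1 to 3), periodontitis being a lasting inflammation of the tissue that holds the teeth. The strain, age and sex of the rats, how and for how long periodontitis was produced, and whether animals were pooled are not stated in the labels. No label ties a library to its own animal, so p-values describe the spread among the sequenced libraries, part of which may be technical.

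Muscle myosin is built from a pair of heavy chains, each with an ATP-splitting motor head and a coiled tail that packs into the thick filament. An essential and a regulatory light chain wrap the neck of each head. Fast fibres use the heavy chains encoded by Myh2 (type IIa), Myh1 (IIx) and Myh4 (IIb) with the light chains Mylpf (regulatory) and Myl1 (essential), and slow fibres use Myh7 with Myl2 and Myl3. Myh3 and Myh8 encode the embryonic and perinatal heavy chains of developing and regenerating muscle. The body of the tongue is striated muscle that runs up to the base of the mucosa, and in rodents its fibres are mostly fast.

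All 6 genes had their lowest value in periodontitis 1 and their highest in control 2. The fast light chains and Myh2 had periodontitis means of 52.7% to 58.3% of the control means, and the slow light chain Myl3 had 25.3%. None of the 5 genes that could be tested passed an adjusted p of 0.05 in limma, a linear model fitted to all genes (smallest adjusted p = 1.0). Across the 13154 genes tested, 0 passed (0.0%), and 278 had an unadjusted p under 0.05. In bulk tissue, fewer muscle cells and less RNA per muscle cell cannot be told apart.

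The deposited values are FPKM, fragments scaled by transcript length and library size, so levels of different genes can be compared within a library. FPKM sums ran from 611713 to 660619 per library, and read depth is unknown. The labelled epithelium was present in every library, with Krt13, a keratin of the oral surface, at 4068 to 10164 FPKM. Skeletal muscle RNA was present in every library too, with Acta1, skeletal muscle actin, at 149 to 746 FPKM. Of 6 cardiac muscle markers 1 was listed (Tnnt2, 14.8 to 21.1 FPKM), and the others were not analysed here. Periodontitis 1 stood apart: its epithelial markers summed to 20107 FPKM against 10681 to 13544 in controls, and it had 218 genes listed at 0 against 72 to 124. Periodontitis 3 had 174 genes listed at 0 and 40.6% of its FPKM sum in 4 gland genes (Lipf, Lcn1, Vegp2 and Bpifb1), against 24.5% to 29.4% in controls. Periodontitis 1 and 2 had 15.2% and 23.5% in these genes, below every control.

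To set the slow Myl3 beside the fast chains with which it is compared, the 250 bases before their RefSeq start sites are shown (build GRCr8, 5′ to 3′ on the gene's strand). RefSeq lists Mylpf as Myl11 and gives Myl1 a pair of starts, for the long and the short essential chain. Capitals mark matches, on either strand, to 5 motifs of muscle and core promoters: the E-box CANNTG, the M-CAT element CATTCC, the TATA element TATAAA, the MEF2 site and the CArG box.
Myl3 (chr8:119616844-119617093, plus strand): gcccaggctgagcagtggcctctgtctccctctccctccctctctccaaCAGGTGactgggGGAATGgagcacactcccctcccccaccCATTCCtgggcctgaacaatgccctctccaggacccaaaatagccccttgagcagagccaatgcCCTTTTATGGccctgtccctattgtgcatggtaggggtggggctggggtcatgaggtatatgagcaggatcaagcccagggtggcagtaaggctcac
Mylpf (chr1:191260039-191260288, plus strand): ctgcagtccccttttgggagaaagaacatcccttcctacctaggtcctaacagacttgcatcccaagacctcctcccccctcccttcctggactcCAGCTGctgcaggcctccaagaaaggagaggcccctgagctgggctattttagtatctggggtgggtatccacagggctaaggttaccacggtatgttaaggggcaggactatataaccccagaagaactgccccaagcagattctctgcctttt
Myl1, start of the long form (chr9:75907697-75907946, minus strand): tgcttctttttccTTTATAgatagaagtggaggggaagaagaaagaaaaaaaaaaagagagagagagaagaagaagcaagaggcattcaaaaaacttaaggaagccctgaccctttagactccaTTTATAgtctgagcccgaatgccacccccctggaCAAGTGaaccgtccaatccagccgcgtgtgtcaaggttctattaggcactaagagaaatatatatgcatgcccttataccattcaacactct
Myl1, start inside the gene (chr9:75897800-75898049, minus strand): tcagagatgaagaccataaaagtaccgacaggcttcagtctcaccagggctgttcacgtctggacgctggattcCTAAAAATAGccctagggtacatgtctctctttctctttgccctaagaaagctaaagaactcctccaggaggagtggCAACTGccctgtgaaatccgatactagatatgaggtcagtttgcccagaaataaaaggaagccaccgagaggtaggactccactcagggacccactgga
Myh2 (chr10:52355489-52355738, plus strand): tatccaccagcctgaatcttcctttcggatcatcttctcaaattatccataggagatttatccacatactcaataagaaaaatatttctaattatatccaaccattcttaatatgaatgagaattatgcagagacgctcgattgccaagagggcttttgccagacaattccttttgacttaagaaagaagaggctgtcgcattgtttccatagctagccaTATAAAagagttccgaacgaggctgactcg

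Myl3 held an E-box 201 bases, M-CAT elements 189 and 161 bases, and a CArG box 97 bases before its start. Mylpf held an E-box at 155 bases. The outer Myl1 start had an E-box at 92 bases and TATAAA on the opposite strand at 237 and 126 bases, and the inner start had a MEF2 site at 176 bases and an E-box at 99 bases. Myh2 held TATAAA at 30 bases and no other of these motifs. Of the developmental chains, which are not printed, Myh3 held TATAAA at 30 and an E-box at 192 bases. The window before the RefSeq start of Myh8 held none of the motifs. Whether muscle uses that start was not tested. Among all 33469 promoter windows of the same length, 65.5% held an E-box, 12.1% an M-CAT element, 12.9% TATAAA, 2.96% a MEF2 site and 1.497% a CArG box. In the windows shown no 2 of these matches overlapped. A match describes the letters only. The letters of the Myl3 window differed from those of the fast genes in holding the CArG box and M-CAT elements, and no measurement here bears on whether they are bound.

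Mylpf, the fast regulatory light chain on chromosome 1 (198655742 to 198658583, plus strand, as the tables give it, rat build not stated), was the most abundant chain. It had 533, 753 and 538 FPKM in controls 1 to 3 and 215, 372 and 454 FPKM in periodontitis 1 to 3. Every periodontitis library lay below every control, and periodontitis 1 was the lowest by a wide margin. The means were 608 ± 126 and 347 ± 121 FPKM (SD, n = 3), a log2 fold change of -0.85 ± 0.32 on the log2(FPKM + 1) scale (SE, limma adjusted p = 1.0). Without periodontitis 1 the log2 fold change was -0.54.

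Myl1, the fast essential light chain on chromosome 9 (73937823 to 73958480, minus strand), had 456, 604 and 417 FPKM in controls and 170, 337 and 355 FPKM in periodontitis. Its order of libraries differed from that of Mylpf only in that control 1 was above control 3. The groups did not overlap. The means were 492 ± 98.9 and 287 ± 102 FPKM (SD, n = 3), with a log2 fold change of -0.83 ± 0.33 (SE, limma adjusted p = 1.0), and -0.49 without periodontitis 1. The row holds both the long and the short form, which cannot be told apart here. Mylpf and Myl1 kept a nearly fixed proportion, since Mylpf was 1.10 to 1.29 times as high as Myl1 in all 6 libraries.

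Myl3, the essential light chain of slow fibres and of the heart ventricle, lies on chromosome 8 (119030875 to 119036996, plus strand). It had 6.19, 13.5 and 9.89 FPKM in controls and 1.36, 1.75 and 4.40 FPKM in periodontitis. Here periodontitis 2 was almost as low as periodontitis 1, at 17.8% and 13.7% of the control mean, whereas in the fast light chains and Myh2 periodontitis 2 stood at 61.2% to 68.4%. The means were 9.88 ± 3.68 and 2.50 ± 1.65 FPKM (SD, n = 3). The log2 fold change was -1.67 ± 0.38 (SE, limma adjusted p = 1.0), the strongest of the 5 tested chains and rank 13 of all tested genes by p. Leaving out periodontitis 1 gave -1.44, so this value depended less on that library than those of the other chains. With a pseudocount of 0.1 in place of 1 the log2 fold change of Myl3 was -2.05, so its size depended on the pseudocount.

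Myh2, the fast IIa heavy chain on chromosome 10, had 133, 195 and 142 FPKM in controls and 28.1, 98.3 and 121 FPKM in periodontitis. The groups did not overlap, and periodontitis 1 held 17.9% of the control mean against 62.7% and 77.4% in periodontitis 2 and 3. The means were 157 ± 33.7 and 82.5 ± 48.6 FPKM (SD, n = 3), a log2 fold change of -1.14 ± 0.51 (SE, limma adjusted p = 1.0). Without periodontitis 1 it was -0.50. The Myh2 row runs from 53713938 to 53848347 on the plus strand, a span of 134410 bases against 23820 for Myh3 (53621375 to 53645194), and it overlaps the Myh8 row by 29530 bases. RefSeq places Myh1 and Myh4 between Myh2 and Myh8. The coding sequences of these heavy chains are closely alike, so the value of the Myh2 row cannot be assigned to the IIa chain alone, and how reads of the neighbouring genes were divided was not tested.

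The developmental heavy chains were low. Myh8, the perinatal chain (chromosome 10, 53818818 to 53918524, plus strand), had 2.73, 3.53 and 3.11 FPKM in controls and 0.314, 2.44 and 2.23 FPKM in periodontitis, with groups that did not overlap. The log2 fold change was -0.75 ± 0.38 (SE, limma adjusted p = 1.0), and -0.30 without periodontitis 1. With a pseudocount of 0.1 in place of 1 it was -1.25, since the larger pseudocount shrinks changes at such low levels. Myh3, the embryonic chain, had 0.580, 0.678 and 0.609 FPKM in controls and 0.0127, 0.569 and 0.622 FPKM in periodontitis. It did not reach 1 FPKM in any library and was therefore not tested, its groups overlapped, and only periodontitis 1 lay far from the other libraries. At 2.04% of the control mean, that library's Myh3 value was lower than its share for any other chain.

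**Figure D1:**
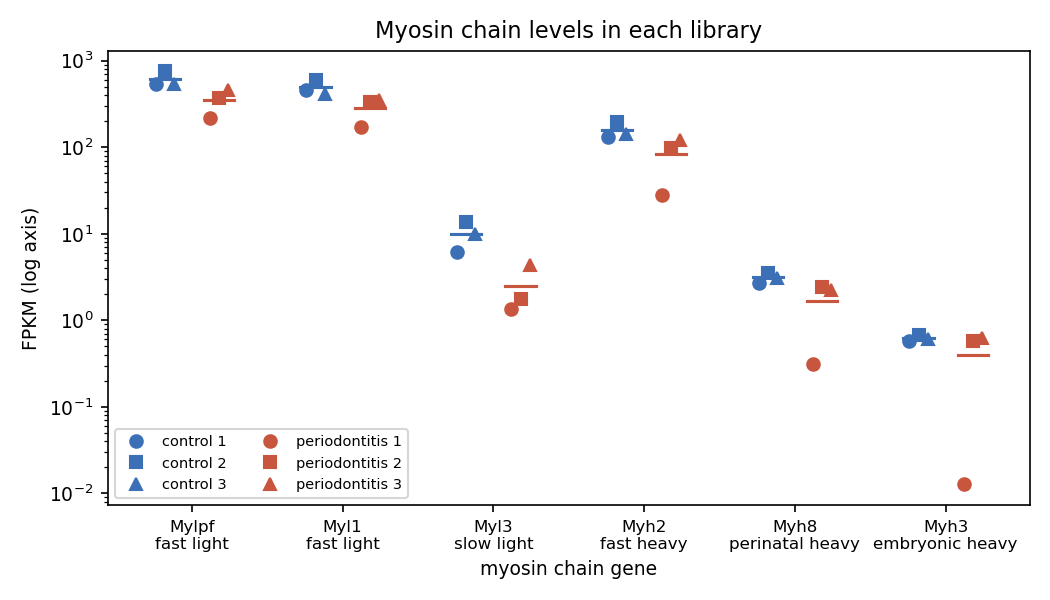
FPKM (log axis) of the 6 listed myosin chains in each library, with horizontal lines at the group means (3 libraries each, marker shape gives the replicate number). Mylpf, Myl1, Myl3, Myh2 and Myh8 have all periodontitis points below all control points, and periodontitis 1 (red circle) is the lowest library for every gene.

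Of the 5 tested chains, 5 had all 3 periodontitis libraries below all 3 controls, where 3.59% of all tested genes did. A lower mean was found for 5 of the 5, against 57.4% of all tested genes. An unadjusted limma p under 0.05 with a lower mean was found for 3 of the 5 (Mylpf, Myl1 and Myl3), against 1.73% of all tested genes. The chains vary together and are not separate observations. The separation was narrow for most of them and depended on how libraries were scaled. When libraries were rescaled after setting aside the 4 gland genes, 2 of 5 remained without overlap (Myl1 and Myl3; 2.19% of all genes), and with quantile normalization 2 of 5 did (Myl3 and Myh8; 3.0% of all genes). Myl3 was the 1 chain without overlap under all 3 scalings: its highest periodontitis value was 5.25 against a lowest control of 6.04 FPKM after the gland rescaling, and 4.82 against 5.87 FPKM after quantile normalization. The other 4 chains kept a lower mean under both scalings.

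By mean level over all 6 libraries the order was Mylpf (478 FPKM), Myl1 (390), Myh2 (120), Myl3 (6.19), Myh8 (2.39) and Myh3 (0.512). Within a library each gene was above the next in 6 of 6 libraries, except that Myl3 was above Myh8 in 5 of 6. The exception was periodontitis 2, where Myl3 was 0.718 times as high as Myh8. Myl3 and Myh8 are thus the neighbours whose order did not hold in every library, and the largest step between the means was from Myh2 to Myl3, 14.4-fold to 56.0-fold within libraries. In periodontitis 1 the step from Myh8 to Myh3 was larger, at 24.7-fold against 20.7-fold. Among the listed heavy chains Myh2 made up 97.0% to 98.8% of the summed FPKM in each library, Myh8 1.11% to 2.41% and Myh3 0.0447% to 0.562%. Among the listed light chains Mylpf made up 52.4% to 55.8%, Myl1 43.2% to 47.4% and Myl3 0.247% to 1.03%. Myh1, Myh4, Myh7 and Myl2 have no share of their own here. The Myh2 share, like the Myh2 row, cannot be assigned to the IIa chain alone.

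Fast and slow chains were compared as ratios within a library, which a single scaling factor per library does not change. Of 5 gene pairs set for this, 1 could be formed, the essential light chains Myl1 (fast) and Myl3 (slow). The pairs were set with earlier results of these data known. The ratio of Myl1 to Myl3 was 73.7, 44.6 and 42.1 in controls and 125, 192 and 80.7 in periodontitis. Its divisor Myl3 was low in periodontitis, at 1.36, 1.75 and 4.40 FPKM. The fast chain was the higher in 6 of 6 libraries, with a mean log2 ratio of 6.33 ± 0.85 (SD, n = 6). The exact two-sided sign-flip permutation p was 0.03125, the smallest that 6 libraries can give. It takes that value whenever the same chain is the higher in all 6, so it adds nothing to the levels. All 3 periodontitis ratios were above all 3 control ratios, and the highest control and the lowest periodontitis ratio were close. The mean log2 ratio was 5.69 in controls and 6.96 in periodontitis, a difference of 1.27 (exact two-sided permutation p = 0.1, n = 3 per group, the smallest that this design allows, so it could not pass 0.05). Without periodontitis 1 the difference was also 1.27, and over the 6 fits that leave out a library it ran from 0.96 to 1.58. With a pseudocount of 1 it was 0.84. After quantile normalization, which is not a single factor, it was 1.14 and the groups overlapped, with 82.1 in control 1 above 78.4 in periodontitis 1 (exact permutation p = 0.2).

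The ratio of Mylpf to Myl3, chosen after the values were seen, was 86.0, 55.6 and 54.4 in controls and 159, 212 and 103 in periodontitis. It repeats the Myl1 pattern because both share Myl3 as the slow chain. After quantile normalization the groups of Mylpf to Myl3 did not overlap, unlike those of Myl1 to Myl3. They were close, with 93.3 in control 1 and 98.9 in periodontitis 1. Troponin I, the inhibitory subunit of the thin filament switch, also has a fast (Tnni2) and a slow (Tnni1) gene. The ratio of Tnni2 to Tnni1 was 103, 56.8 and 63.5 in controls and 67.2, 99.3 and 127 in periodontitis, and there the groups overlapped. For the calcium stores of the fibre, the ratio of fast Casq1 to slow Casq2 was 12.4, 12.4 and 12.8 in controls and 8.20, 12.9 and 10.6 in periodontitis. The ratio of Myh2 to Myl3 was 21.4, 14.4 and 14.4 in controls and 20.7, 56.0 and 27.6 in periodontitis, and it overlapped through periodontitis 1. These ratios too were chosen after the values were seen. A higher fast to slow ratio in every periodontitis library was thus seen for the fast light chains over Myl3 in the deposited values, and not for Myh2 over Myl3, troponin I or calsequestrin. The difference between these pairs was not tested.

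**Figure D2:**
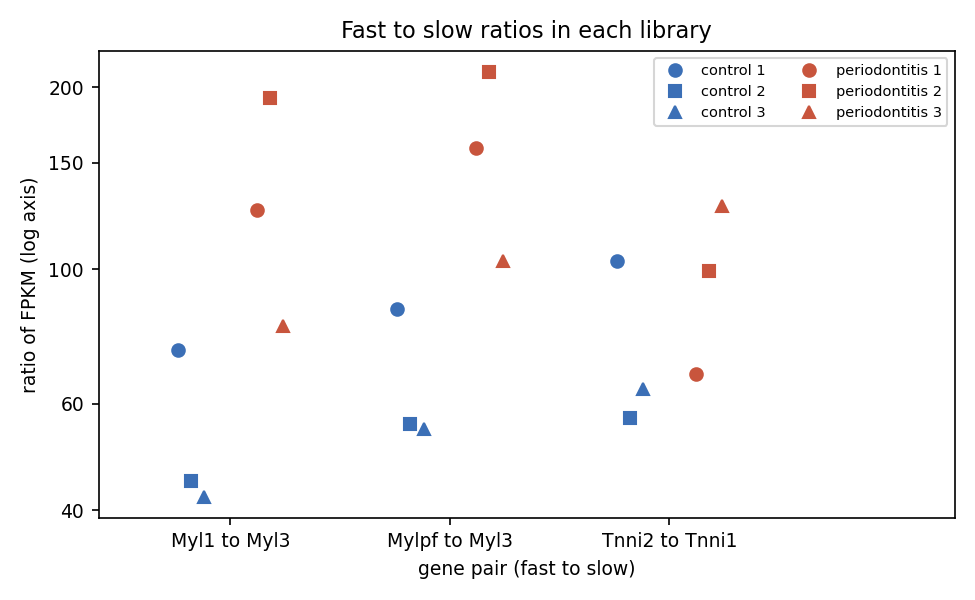
Ratio of FPKM of a fast to a slow gene (log axis) in each library for Myl1 to Myl3, Mylpf to Myl3 and Tnni2 to Tnni1. Both light chain ratios are above the controls in all 3 periodontitis libraries (80.7 or more against 73.7 or less for Myl1 to Myl3), and the troponin I ratios of the groups overlap.

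To ask whether the chains moved with muscle RNA as a whole, each was set against 6 listed genes used by all fibre types (Acta1, Ckm, Des, Neb, Ldb3 and Myot). Their geometric mean was 49.0, 69.3 and 43.5 FPKM in controls and 11.6, 31.7 and 34.4 FPKM in periodontitis, so these genes were themselves lower in every periodontitis library, by 1.18 on the log2 scale in the mean. Relative to them Myh2 was nearly level, with a log2 value of 1.55 ± 0.14 in controls and 1.57 ± 0.28 in periodontitis (SD, n = 3). Mylpf had 3.50 ± 0.11 and 3.83 ± 0.34, and Myl1 3.20 ± 0.07 and 3.55 ± 0.28. For Myl1 all periodontitis values (3.37 or more) were above all control values (3.26 or less), and for Mylpf the groups overlapped. In both light chains periodontitis 1 was the highest, at 4.21 (Mylpf) and 3.87 (Myl1). Without that library the differences were 0.13 and 0.19, against 0.32 and 0.35 with it, and with Acta1 alone as the reference they were 0.17 and 0.19.

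Myl3 relative to the same genes was -2.49 ± 0.44 in controls and -3.42 ± 0.66 in periodontitis (SD, n = 3). The controls had -2.98, -2.36 and -2.14, and periodontitis 1 to 3 had -3.10, -4.18 and -2.97. Periodontitis 3 lay just above control 1, so the groups overlapped, and periodontitis 2 was the lowest. With Acta1 alone as the reference the Myl3 difference was -1.08 and with Ckm alone -0.91. Without periodontitis 2 it was -0.54. Myh8 had -4.09 ± 0.25 and -4.29 ± 0.81, and its difference of -0.20 became 0.26 without periodontitis 1. Myh3, the lowest chain, had -6.41 ± 0.26 and -7.14 ± 2.33, and its difference of -0.73 became 0.61 without periodontitis 1.

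In periodontitis 1 the fast light chains and Myh2 parted. The ratio of Mylpf to Myh2 was 7.67 there, against 3.74 to 4.02 in the other 5 libraries. The ratio of Myl1 to Myh2 was 6.04, against 2.93 to 3.44. Both ratios were chosen after the values were seen. The same library had the largest number of genes at 0 and the most epithelial RNA, and the part of either in these ratios was not tested.

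**Figure D3:**
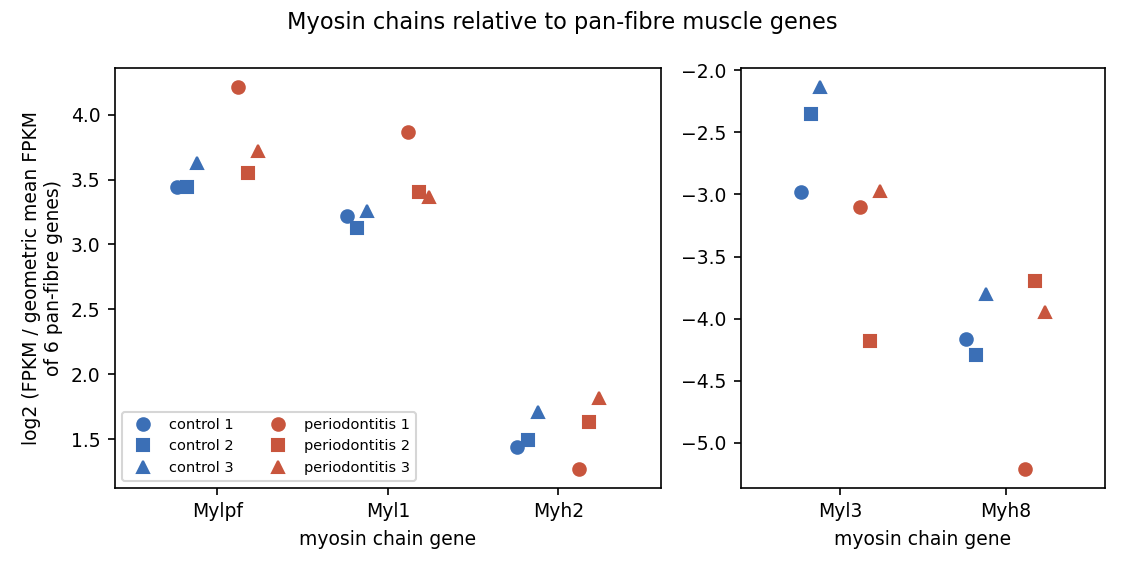
Log2 of FPKM of Mylpf, Myl1, Myh2, Myl3 and Myh8 divided by the geometric mean FPKM of 6 pan-fibre genes, by library. Myh3 is not shown. Mylpf and Myl1 are highest in periodontitis 1 (4.21 and 3.87), Myh2 stays between 1.27 and 1.82, and Myl3 is lowest in periodontitis 2 (-4.18).

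The genes around the chains were then described from lists, none of which had a gene past an adjusted p of 0.05 in limma. Of 14 thick filament and myosin assembly genes 12 were listed and tested. All 12 had a lower mean in periodontitis, 10 had groups without overlap and 9 an unadjusted limma p under 0.05. The shares over all tested genes were 57.4% for a lower mean, 3.59% for no overlap and 1.73% for such a p with a lower mean. Their median log2 fold change was -0.94 against -0.03 over all tested genes. Mybph, a myosin-binding protein, had 5.42, 9.36 and 8.10 FPKM in controls and 3.34, 4.19 and 4.003 FPKM in periodontitis (log2 fold change -0.81). Trim55 and Trim63, ubiquitin ligases of the sarcomere, had log2 fold changes of -0.89 and -1.03.

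Fast fibre genes outside the myosins numbered 8, all tested. All 8 had a lower mean, 4 had groups without overlap and 4 an unadjusted limma p under 0.05, against the same 57.4%, 3.59% and 1.73% of all tested genes. Mybpc2 is in each of these counts and in those of the thick filament list, so the lists are not separate. The median was -1.05. Actn3, the alpha-actinin of fast fibres, had a log2 fold change of -0.996, Atp2a1, their calcium pump, -1.15, and Tnnt3, fast troponin T, -1.10. Of 8 slow fibre genes 7 were listed and 6 tested. A lower mean was found for 4 of the 6, against 57.4% of all tested genes. None had groups without overlap (3.59% of all tested genes). An unadjusted limma p under 0.05 with a lower mean was found for 1 (1.73%), and the median was -0.58. The slow genes with lower means were Tnni1 (-0.88), Tnnt1, slow troponin T (-0.98), Myoz2, a Z-disc protein (-0.61), and Casq2 (-0.56). Atp2a2 and Tpm3, which many other cell types also express, had 0.06 and 0.04. Without periodontitis 1 the list medians were -0.59 for the thick filament, -0.54 for fast and -0.30 for slow fibre genes.

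Myosin genes of other cell types had values on both sides of 0. Of 10 non-muscle and smooth muscle myosin genes 9 were tested, 6 with a lower mean (57.4% of all tested genes) and 3 with a higher mean. None had groups without overlap, and the median was -0.08. Myh10, a non-muscle heavy chain, had -0.61, Mylk, a kinase of smooth muscle light chains, 0.53, and Myl12b, a non-muscle regulatory light chain, -0.18. Of 7 other striated muscle myosin genes 2 were listed. Myl4, the essential light chain of the atrium and of embryonic muscle, had 45.6, 44.2 and 33.9 FPKM in controls and 7.17, 24.7 and 31.7 FPKM in periodontitis (log2 fold change -1.14 ± 0.48, SE, limma adjusted p = 1.0). Its groups did not overlap, and in FPKM it was above Myl3 in every library. Myh7b, a slow-type heavy chain, had 0.12. The median of the pair was -0.51, and it was -0.09 without periodontitis 1 and -0.80 without periodontitis 3.

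Genes that respond to loss of the nerve or mark regeneration numbered 11, of which 7 were listed and 4 tested. Of these 4, 3 had a lower mean (57.4% of all tested genes) and 1 a higher mean. Groups without overlap were found for 1 (3.59% of all tested genes). An unadjusted limma p under 0.05 with a lower mean was found for 1 (1.73%). The median of the 4 was -0.36, and it was -0.11 without periodontitis 1 and -0.60 without periodontitis 2 or with a pseudocount of 0.1. Myog, a regulator of muscle differentiation, had a log2 fold change of -0.74, Ncam1, a cell adhesion molecule, -0.46 and Runx1, a transcription factor, -0.27, while Gadd45a, a stress response gene, had 0.16. Of the 6 listed pan-fibre genes all had a lower mean, 5 had groups without overlap (3.59% of all tested genes), and the median was -1.04 (-0.57 without periodontitis 1), with Ldb3 (-1.20), Myot (-1.03) and Acta1 (-1.02) as those with the smallest p.

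The genes most like the fast chains (mean log2 of Mylpf, Myl1 and Myh2) over the 6 libraries were sought among 8813 others with a mean of at least 5 FPKM. They were Tnnt3 (Pearson r = 0.9998), Cryab, a small heat shock protein abundant in muscle (0.9991), Sh3bgr (0.9989), Dhrs7c (0.996) and Eno3, muscle enolase (0.996). Tnnt3 had 618, 916 and 624 FPKM in controls and 162, 433 and 504 FPKM in periodontitis. For Myl3 they were Sdhb, a subunit of the mitochondrial succinate dehydrogenase (0.993), Cacng1, a calcium channel subunit of skeletal muscle (0.980), Idh2, a mitochondrial enzyme (0.975), Acyp2 (0.966) and Trim63 (0.960). Sdhb had 88.7, 108 and 97.5 FPKM in controls and 67.3, 73.8 and 83.7 FPKM in periodontitis, a narrower range than Myl3 in the same order of libraries. These correlations describe 6 libraries that share groups and composition. Among the chains themselves, r was 0.989 for Mylpf with Myl1, 0.986 for Myh2 with Myh8, and 0.680 to 0.921 for Myl3 with the others.

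Markers of other tissue parts were read beside the chains. Of 7 listed epithelial keratin and keratinocyte genes 3 had a lower and 4 a higher mean, and their sum was 20107, 13178 and 7404 FPKM in periodontitis 1 to 3 against 10681 to 13544 in controls. The library with the least myosin thus had the most epithelial RNA. Periodontitis 3 had the least epithelial RNA and was below the controls in 5 of the 6 chains, and its 4 gland genes summed to 268173 FPKM against 159963 to 185414 in controls. In periodontitis 1 and 2 the gland genes summed to 95541 and 143628 FPKM, below every control. After rescaling without those genes periodontitis 3 was below all controls only for Myl1 and Myl3. The 6 listed fibroblast and matrix genes all had a lower mean, against 57.4% of all tested genes. Of the 6, 1 had groups without overlap (3.59% of all tested genes) and 1 an unadjusted limma p under 0.05 (1.73% with a lower mean). Their sums were 607, 1281 and 1039 FPKM in periodontitis against 1418 to 1498 in controls. Smooth muscle markers summed to 288 to 611 FPKM in periodontitis and 328 to 479 in controls, and endothelial markers to 23.1 to 45.1 and 34.0 to 41.2. None of the listed epithelial, fibroblast, smooth muscle or endothelial markers was at 0 in any library. The part of tissue composition in the lower myosin values was not tested.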

How the data were processed

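RNA-seq libraries of rat dorsal tongue epithelium (3 control, 3 periodontitis) were used as deposited. The deposited values are FPKM, per the file headers, for 14405 protein-coding genes. The submitters' processing notes name cutadapt, FastQC, HISAT2 and StringTie without versions, and mm10, a mouse build, although the tables carry rat identifiers and rat chromosomes. Counts, depth and strand are not stated, so no counting interval was computed.

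Groups came from the disease label. The 13154 genes that reached 1 FPKM in 3 or more libraries were tested on log2(FPKM + 1) with limma 3.58.1 in R 4.3.3 (mean-variance trend, group only, two-sided, Benjamini-Hochberg over all tested genes, threshold 0.05). The same code was tested on simulated data. Ratios used exact permutation tests. The members, lists and pairs were chosen with earlier results of these data known. All chains were named, as were up to 3 genes per list with the smallest p and the 5 genes most correlated with the fast and the slow chains. Krt13, Tnnt2, Casq2, Atp2a2, Tpm3, Casq1, Gadd45a, Tnni2 and Mybpc2 were named outside this rule after their values were seen. Alternatives were a replicate block, each library left out, a pseudocount of 0.1, no filter, a filter on the mean (5 FPKM or more), quantile normalization, no trend, and rescaling without 4 gland genes. Promoters and gene order are from RefSeq (GRCr8), and all 6 listed chains had a promoter entry.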

Additional observations from a re-analysis of the deposited data

How the results depend on the processing

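The count of genes past the threshold, 0 as reported, was 3 with the replicate number as a block, 1 at an adjusted p under 0.1, and 0 to 1 with each library left out (1 without control 1, Fam111a, log2 fold change -4.27, limma adjusted p = 0.0168, named after its value was seen). None of these was a myosin chain, and no tested chain changed direction or passed in any fit. Libraries of the same replicate number deviated from their group means with correlations of 0.09, 0.03 and 0.46, and those of different numbers with -0.40 to 0.37. Whether the replicate numbers pair the libraries cannot be told from these values. In the block fit Myl3 had a limma adjusted p of 0.337. The paired form of the Myl1 to Myl3 difference was 1.27 (exact sign-flip permutation p = 0.25, the smallest that 3 pairs allow). With 5 libraries the mean log2 ratio of Myl1 to Myl3 was 6.08 to 6.51, and the exact permutation p was 0.0625, the smallest that 5 allow. The number of chains without overlap, 5 as reported, was 2 after the gland rescaling and 2 after quantile normalization. Leaving out a library cannot lower it. The median of the slow fibre list reversed to 0.0366 with a mean of at least 5 FPKM, which leaves 3 genes, and that of non-muscle and smooth muscle myosins to 0.15 without periodontitis 1 (-0.0869 to 0.15 with each library left out), and the cause was not tested further. Overlap under the gland and quantile scalings, the quantile form of the light chain ratios and every ratio other than Myl1 to Myl3 were chosen after seeing the data. The Myl1 to Myl3 pair was itself set with earlier results of these data known. Depth is unknown, so its limit on Myh3, Myh8 and Myl3, and on the ratios to Myl3, could not be given.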
